A study of Arabidopsis thaliana with 15 samples.

Results

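Glycerate kinase of Arabidopsis thaliana (GLYK, locus AT1G80380) was followed through 5 groups of root samples with its probe set on an Affymetrix array. It is 1 of 22746 probe sets on that array. The gene was chosen from these same measurements, for a large difference between nitrate-supplied roots and roots before supply and a smaller, declining one with ammonium, so its levels and changes are given as a description without a test. Whole hydroponic plants of the accession Columbia-0, for which the labels name no transgene or mutant allele, were raised to growth stage 5.10 and then kept for 26 h in medium without nitrogen. Roots were taken at that point, or 1.5 h or 8 h after the medium received 1 mM nitrate or 1 mM ammonium. Each of the 5 groups has 3 samples that the labels call biological replicates, and each sample pooled the roots of at least 5 plants. All 5 groups therefore share the starvation, and no roots left without nitrogen were taken at 1.5 h or 8 h, so a change from before supply includes elapsed time and time of day, which cannot be told apart from the supplied ion. The ions that accompanied nitrate and ammonium are not given in the sources used here.

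Glycerate kinase phosphorylates glycerate to 3-phosphoglycerate, an intermediate of the Calvin cycle and of glycolysis. It is best known as the last enzyme of photorespiration, the route in which the phosphoglycolate made when Rubisco reacts with oxygen is recycled through chloroplast, peroxisome and mitochondrion. Most of that work concerns leaves. In Arabidopsis, phytochrome is known to control the choice between alternative promoters of this gene, which give a plastid or a cytosolic form. The RefSeq gene table (TAIR10.1) lists 8 transcripts and 8 proteins for the locus, which lies on chromosome 1. Levels from 1 probe set do not separate these transcripts, and which of them it matches was not examined.

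All levels are on the log2 scale of RMA, a method that corrects the background of an array, makes the arrays' distributions alike and summarises the probes of each set. The 15 samples were alike in overall distribution, with medians between 6.76 and 6.83. Samples of the same group correlated at 0.994 to 0.998 over all probe sets. The deposited values carry no detection call, and the number of arrays limits the precision. As a gauge of low signal, the lower quartile of all probe sets lay between 4.36 and 4.52 in every sample. Of the root markers, the β-glucosidase PYK10 and the root hair expansin EXPA7 were measured under a name, 2 of 9 listed, and their mean level lay between 11.1 and 11.7 in every sample. The measured markers of photosynthesis (RCA, PRK and SBPASE, 3 of 20 listed) had a mean level of 4.41 to 4.64 in all samples. Of these, PRK and SBPASE had group means of 3.56 to 3.85, under that lower quartile, whereas RCA, the Rubisco activase, stood at 5.82 to 6.46 in single samples, above it. In these bulk extracts, fewer cells of a type and less RNA per cell cannot be told apart.

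Before supply, glycerate kinase stood at 7.85, 7.61 and 7.92 in the 3 samples (mean 7.80 ± 0.16, SD, n = 3). At 1.5 h after nitrate it stood at 11.97, 11.77 and 11.59 (mean 11.78 ± 0.19, SD, n = 3). At 1.5 h after ammonium the values were 10.39, 10.44 and 10.70 (mean 10.51 ± 0.17, SD, n = 3). Every supplied sample was thus already well above all samples before supply at the earlier time, and every nitrate sample was above every ammonium sample. At 8 h after nitrate the level was 11.89, 11.65 and 11.66 (mean 11.73 ± 0.14, SD, n = 3). At 8 h after ammonium it was 9.19, 9.37 and 9.30 (mean 9.29 ± 0.09, SD, n = 3). The later nitrate samples lay among the earlier ones, whereas the later ammonium samples all lay below the earlier ones.

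**Figure D1:**
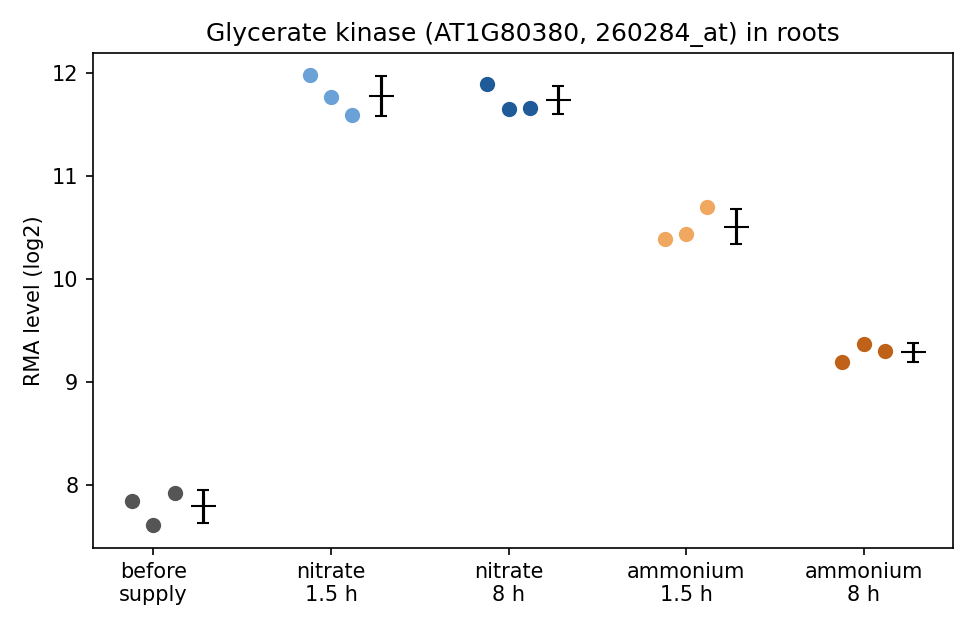
Level of glycerate kinase (vertical axis, RMA log2) in each of the 15 root samples, by group, with the group mean and SD as a black mark and bar (n = 3). Both nitrate groups overlap near 11.7 and the ammonium groups lie between them and the roots before supply, at 10.51 after 1.5 h and 9.29 after 8 h.

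In order of level, the groups ran from nitrate at 1.5 h and 8 h, through ammonium at 1.5 h and ammonium at 8 h, to the roots before supply. The nitrate groups, with means 0.04 apart, did not differ beyond their spread. Each of the other steps separated neighbours without overlap: the lowest nitrate sample at 8 h was 0.95 above the highest ammonium sample at 1.5 h, the ammonium groups were 1.02 apart, and the lowest ammonium sample at 8 h was 1.27 above the highest sample before supply. The residual SD of the probe set around its group means was 0.153, against a median of 0.115 over all probe sets.

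Against roots before supply, glycerate kinase was higher by 3.98 ± 0.11 log2 (SE of the fit) at 1.5 h after nitrate, a 15.8-fold difference and the 6th highest of the 22746 probe sets. At 8 h after nitrate it was higher by 3.94 ± 0.11, or 15.3-fold. With ammonium the change was 2.71 ± 0.11 at 1.5 h, or 6.56-fold, and 1.49 ± 0.11 at 8 h, or 2.81-fold. These 4 differences share the same 3 samples before supply. In log2 units, the difference reached with ammonium was 68.1% of that with nitrate at 1.5 h and 37.9% at 8 h.

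Set directly against each other, nitrate exceeded ammonium by 1.27 ± 0.11 at 1.5 h (2.41-fold) and by 2.45 ± 0.11 at 8 h (5.45-fold, the 21st highest of all probe sets). The difference between the ions was therefore larger at 8 h by 1.18 ± 0.16. Between the times, with nitrate the level at 8 h minus that at 1.5 h was −0.04, with a 95% interval of −0.29 to 0.20. With ammonium it was −1.22 ± 0.11, so the level at 8 h was 2.33-fold lower. Leaving out any 1 of the 15 samples moved none of these differences by as much as the residual SD, though a sample of a group outside a comparison cannot move its difference.

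Glycerate kinase is the end of a pathway, and it was not chosen by the levels of the other genes of that pathway. Those genes were measured on the same arrays, and their list was made with earlier results of these data known. Of 36 other photorespiratory genes listed, 7 were measured by a probe set with that 1 gene as its annotation: the glycine decarboxylase subunits GLDT, GLDH2 and GLDH3, the hydroxypyruvate reductases HPR1 and HPR2, and the plastid transporters PLGG1 and BASS6. The others had no such probe set in the annotation used here and were not analysed. They include the phosphoglycolate phosphatase, glycolate oxidases and serine hydroxymethyltransferases. Each probe set was tested with limma across the whole array, two-sided, and called where the Benjamini-Hochberg adjusted p was under 0.05.

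None of the 7 was called higher in any comparison, and every call made was of a lower level. At 1.5 h after nitrate, 3 of 7 were called lower and 0 higher (0 higher also at an unadjusted p under 0.05), where 7.29% of all probe sets were called lower and 5.97% higher. At 1.5 h after ammonium, 3 were lower and 0 higher (1 higher at an unadjusted p under 0.05), against 7.83% and 5.97% of all probe sets. At 8 h the counts were 3 lower and 0 higher with nitrate (0 higher at an unadjusted p under 0.05), against 11.7% and 8.93% of all, and 2 lower and 0 higher with ammonium (again 0 higher when unadjusted), against 9.91% and 7.72%. The median change of the 7 was −0.11 and −0.07 at 1.5 h with nitrate and ammonium, and −0.04 and −0.09 at 8 h. Over all probe sets those medians were −0.04, −0.03, −0.02 and −0.03. With 7 genes, these shares are coarse.

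Plastid transporters carry photorespiratory glycolate and glycerate across the envelope. BASS6 (AT4G22840), a plastid envelope transporter known to export glycolate, fell in all 4 supplied groups, and the order of its group means was the reverse of that of glycerate kinase. Before supply it stood at 8.59, 8.61 and 8.54. At 1.5 h it stood at 7.56, 7.66 and 7.72 with nitrate and at 8.04, 8.08 and 8.10 with ammonium. At 8 h it stood at 7.80, 7.57 and 7.71 with nitrate and at 8.26, 8.27 and 8.21 with ammonium. The nitrate groups overlapped, all nitrate samples lay below all ammonium samples, the ammonium groups did not overlap each other, and all supplied samples lay below those before supply.

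BASS6 fell by 0.94 ± 0.07 log2 at 1.5 h after nitrate (limma adjusted p = 7.5e-08). With ammonium at 1.5 h it fell by 0.51 ± 0.07 (limma adjusted p = 9.6e-05). At 8 h it fell by 0.89 with nitrate and by 0.34 with ammonium, each ± 0.07 (limma adjusted p = 9.7e-08 and 0.0026). It was lower with nitrate than with ammonium by 0.42 at 1.5 h (limma adjusted p = 5.5e-04) and by 0.55 at 8 h (limma adjusted p = 3.7e-05), and was the 1 gene of the 7 called in each of these comparisons, where 5.08% and 5.28% of all probe sets were called lower. Every one of these 6 calls held in all 23 alternatives tried for each. The change between 1.5 h and 8 h with ammonium, 0.17 ± 0.07, was not called (limma adjusted p = 0.12), nor was the shift of the nitrate minus ammonium difference between the times (−0.13 ± 0.10, limma adjusted p = 0.51).

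**Figure D2:**
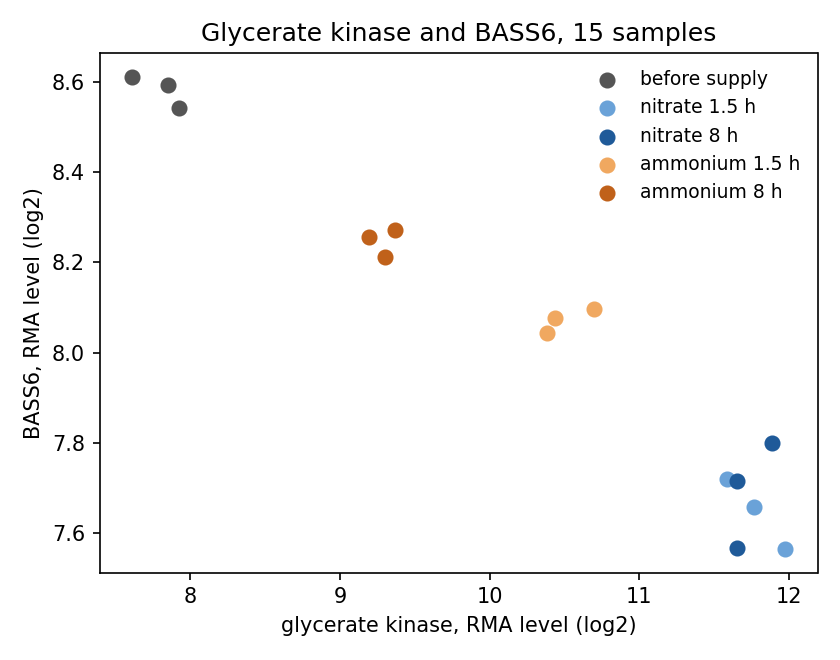
Level of BASS6 (vertical axis, RMA log2) against that of glycerate kinase (horizontal axis, RMA log2), 1 point for each of the 15 samples, coloured by group. The groups descend from the roots before supply (BASS6 at 8.54 to 8.61) to the nitrate-supplied roots (7.56 to 7.80), with ammonium at 8 h and at 1.5 h between them.

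The 15 points of that plot fall into separate clusters, with the nitrate groups together in 1 of them, so no correlation across them is given. PLGG1, the plastid transporter that exchanges glycolate for glycerate, had group means of 4.29 to 4.58, within or next to the range of the lower quartiles. Its change at 1.5 h after ammonium was 0.28 ± 0.09 and missed the threshold (limma adjusted p = 0.052). That gene was called without the third ammonium sample at 1.5 h (0.37, limma adjusted p = 0.017) and without the first nitrate sample at 8 h (0.28, limma adjusted p = 0.048). The result also moved the other way. Leaving out single samples lowered the change to as little as 0.17, and the limma adjusted p reached 0.24 among all alternatives. The first ammonium sample at 1.5 h was the highest of its group for this gene.

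The enzymes that deliver glycerate are the hydroxypyruvate reductases. HPR2, the cytosolic form, stood at 9.82, 9.52 and 9.49 before supply and between 9.19 and 9.47 in all 12 supplied samples. It fell by 0.30 ± 0.09 at 1.5 h after nitrate (limma adjusted p = 0.038), by 0.34 at 1.5 h after ammonium (0.016) and by 0.36 at 8 h after nitrate (0.0082). At 8 h after ammonium its change was −0.26 ± 0.09 (limma adjusted p = 0.060). Without the first sample before supply, which was the highest of the 15, the calls at 1.5 h were lost (limma adjusted p = 0.15 with nitrate and 0.060 with ammonium). They were also lost without replicate 2 or 3 of nitrate (0.18 and 0.11) and without replicate 1 or 3 of ammonium (0.058 and 0.059), respectively. Fitting only the groups compared took away both calls as well (limma adjusted p = 0.17 with nitrate and 0.077 with ammonium). Median centring took away the call with nitrate (limma adjusted p = 0.070). HPR1, the peroxisomal form, had group means of 4.06 to 4.28, under the lower quartiles, and was not called in any comparison.

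**Figure D3:**
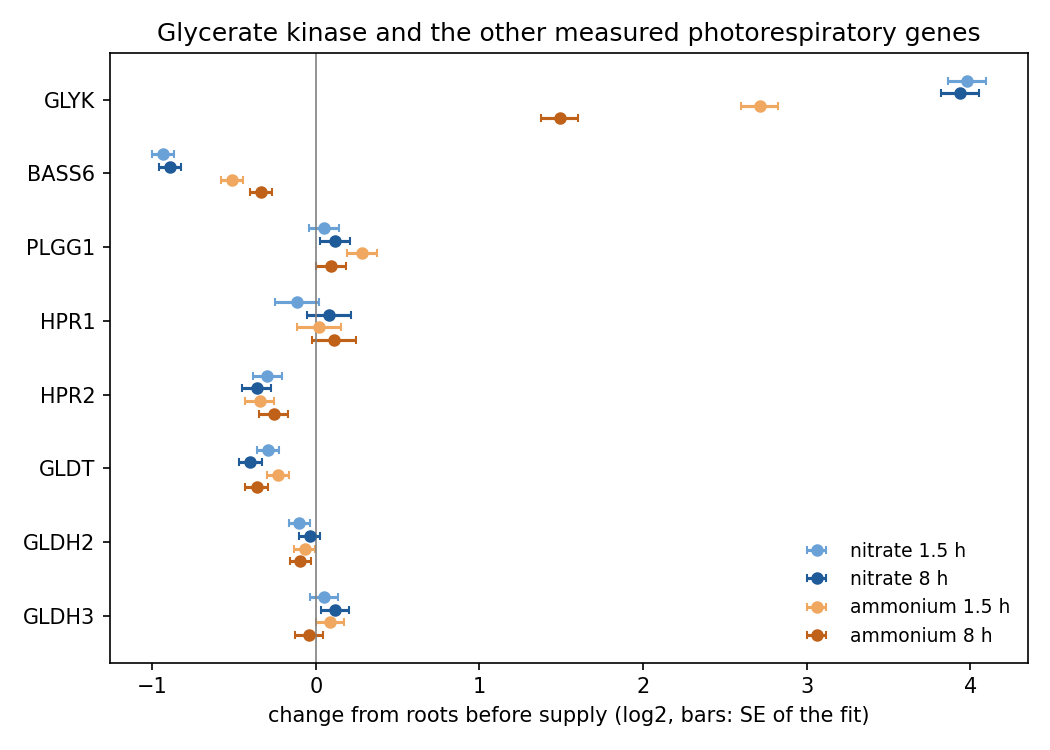
Change from roots before supply (horizontal axis, log2) of glycerate kinase and the other 7 measured photorespiratory genes, 1 point for each supplied group, with the SE of the limma fit as bars. Glycerate kinase lies between 1.49 and 3.98, and BASS6 lies between −0.94 and −0.34, with the groups in the opposite order.

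Further upstream, GLDT encodes the T protein of glycine decarboxylase, the mitochondrial complex that releases carbon dioxide and ammonium from glycine. It stood at 10.04, 10.08 and 10.19 before supply and between 9.58 and 9.88 in all supplied samples. It fell by 0.29 ± 0.07 at 1.5 h after nitrate (limma adjusted p = 0.0088) and by 0.23 ± 0.07 after ammonium (0.036), and by 0.40 and 0.36 at 8 h (5.0e-04 and 0.0016). The call at 1.5 h after ammonium was lost without any 1 of 6 samples (limma adjusted p between 0.0501 and 0.15), namely replicates 2 and 3 before supply, each of the 3 ammonium samples at 1.5 h and replicate 3 of nitrate at 1.5 h. That call was lost too with median centring (limma adjusted p = 0.084) and with only the groups compared (0.11). GLDT did not separate the ions: the nitrate minus ammonium difference was −0.06 at 1.5 h and −0.04 at 8 h (limma adjusted p = 0.67 and 0.83). Of the H proteins of the same complex, GLDH2 had group means of 11.77 to 11.87 and GLDH3 of 4.95 to 5.12, and neither was called in any comparison.

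Between the times, limma called 0 of the 7 photorespiratory genes with nitrate (0 at an unadjusted p under 0.05), where 11.9% of all probe sets were called. With ammonium it again called 0 (1 at an unadjusted p under 0.05, BASS6), where 11.5% were called. For the shift of the difference between the ions from 1.5 h to 8 h it called 0 (0 unadjusted), where 4.5% were called.

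The product of glycerate kinase, 3-phosphoglycerate, is also a substrate of lower glycolysis. Of 21 genes listed there, 4 were measured. GAPC2, a cytosolic glyceraldehyde-3-phosphate dehydrogenase, stood at 12.74, 12.73 and 12.80 before supply, between 13.28 and 13.47 in the 6 nitrate samples and between 12.84 and 13.15 in the 6 ammonium samples. It rose by 0.53 ± 0.07 and 0.63 ± 0.07 at 1.5 h and 8 h after nitrate (limma adjusted p = 3.8e-05 and 4.7e-06) and by 0.29 at 8 h after ammonium (0.0063), while its change at 1.5 h after ammonium was 0.13 (0.26). Nitrate exceeded ammonium by 0.41 at 1.5 h (limma adjusted p = 7.3e-04) and by 0.33 at 8 h (0.0035). PGK2, a plastid phosphoglycerate kinase that acts on the same 3-phosphoglycerate, rose at 8 h after nitrate (0.40 ± 0.08, limma adjusted p = 0.0010), and nitrate exceeded ammonium then by 0.31 (0.013).

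ALDH11A3, a non-phosphorylating glyceraldehyde-3-phosphate dehydrogenase that makes 3-phosphoglycerate, rose at 8 h after ammonium (0.45 ± 0.11, limma adjusted p = 0.0083), with group means of only 4.17 to 4.73. The enolase-family gene ENO3 was not called in any comparison. In counts of the 4, nitrate gave 1 higher at 1.5 h and 2 at 8 h, where 5.97% and 8.93% of all probe sets were called higher. Ammonium gave 0 at 1.5 h (limma, 0 also at an unadjusted p under 0.05) and 2 at 8 h, where 5.97% and 7.72% were called higher. Between the ions, 1 was higher with nitrate at 1.5 h, and 2 were higher and 1 lower at 8 h, where 5.61% and 5.4% of all probe sets were called higher and, at 8 h, 5.28% lower.

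Of 6 plastid sugar phosphate transporters listed, XPT, the xylulose 5-phosphate translocator, was the 1 measured. It fell by 0.31 ± 0.08 at 8 h after ammonium (limma adjusted p = 0.011) and was higher with nitrate than with ammonium by 0.29 at 1.5 h (0.026) and 0.31 at 8 h (0.016). These calls were lost without single samples: replicates 1 and 3 of nitrate and 2 and 3 of ammonium for the ion difference at 1.5 h (limma adjusted p up to 0.097), replicates 2 and 3 of nitrate and 3 of ammonium for that at 8 h (up to 0.084), and replicate 3 before supply or replicate 3 of ammonium for the fall (up to 0.056). None of the 6 listed genes of the phosphorylated serine pathway, which starts from 3-phosphoglycerate, was measured.

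Genes that respond to nitrate moved in several ways beside it. The 6-phosphogluconate dehydrogenases PGD3 and PGD1, which make NADPH in the oxidative pentose phosphate pathway, rose in all 4 comparisons with roots before supply: PGD3 by 2.34, 0.95, 1.81 and 0.63, and PGD1 by 1.52, 0.49, 1.4 and 0.37 (nitrate at 1.5 h, ammonium at 1.5 h, then the same at 8 h; highest limma adjusted p = 5.7e-04). They were the only 2 measured of 16 listed genes of nitrate assimilation. Of all probe sets, 5.97%, 5.97%, 8.93% and 7.72% were called higher in these comparisons, in the same order. Among 18 listed regulators, only the repressors HHO1, HHO2 and HHO3 were measured. HHO1 rose by 5.50 at 1.5 h and 4.92 at 8 h after nitrate, with changes of −0.00 and −0.17 with ammonium, and nitrate exceeded ammonium by 5.50 and 5.08 (highest limma adjusted p of these 4 calls = 9.8e-14). Its group means before supply and with ammonium were 3.66 to 3.82, under the lower quartiles, so the exact size of these differences is uncertain. HHO2 and HHO3 rose with both ions: HHO2 by 1.13 and 1.26 with nitrate and by 1.36 and 0.91 with ammonium, and HHO3 by 2.21 and 2.30 with nitrate and by 2.26 and 1.49 with ammonium, at 1.5 h and 8 h (highest limma adjusted p = 1.4e-05).

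Genes induced by low oxygen moved with the supply in part of the samples. Of 20 listed, 6 were measured, and at 1.5 h after ammonium all 6 were called higher by limma, where 5.97% of all probe sets were. At 1.5 h after nitrate 2 were (5.97% of all), at 8 h after ammonium 2 (7.72%) and at 8 h after nitrate 0 (8.93%, with 0 of the 6 also at an unadjusted p under 0.05). Between the ions, 1 of the 6 was called lower with nitrate at 1.5 h and 1 at 8 h. Of all probe sets, 5.08% and 5.28% were. The count at 1.5 h after ammonium fell to 3 without replicate 3 before supply or without replicate 1 or 3 of that ammonium group. AT4G24110 lost its call there in 11 of 23 alternatives, 9 of them leaving out 1 sample (limma adjusted p from 0.0501 to 0.16). Among the others were the replicate block (1.93, limma adjusted p = 0.052) and the variance trend (1.93, limma adjusted p = 0.12). The count at 1.5 h after nitrate was 1 without replicate 3 before supply or replicate 2 of that nitrate group and 5 without its replicate 3. At 8 h after ammonium it was 4 without replicate 1 of that group or without replicate 3 of nitrate at 1.5 h. Over the other alternatives, these genes gave 1 to 6 calls at 1.5 h after nitrate, 3 to 6 at 1.5 h after ammonium and 2 to 6 at 8 h after ammonium. Their mean level was 6.56 to 7.54 in the samples before supply, 7.33 to 9.79 at 1.5 h after nitrate, 8.83 to 9.91 at 1.5 h after ammonium, 6.62 to 8.27 at 8 h after nitrate and 7.90 to 9.16 at 8 h after ammonium. The root marker PYK10 rose by 0.27 at 1.5 h after ammonium (limma adjusted p = 0.031), by 0.58 at 8 h after nitrate and by 0.61 at 8 h after ammonium (4.1e-05 and 4.7e-05). EXPA7 rose by 0.38 at 8 h after nitrate (0.028). The part of these in the level of glycerate kinase was not tested.

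The probe sets most like it in pattern were sought among the 569 that had 1 annotated gene and group means spanning at least 1 log2. Pearson's r with glycerate kinase over the 15 samples was highest for AT1G67920 (0.974), AT5G10210 (0.971), AT3G19030 (0.971), AT3G18560 (0.969), AT5G28610 (0.968), AT4G09620 (0.961), AT1G61740 (0.960) and PGM (AT1G78050, 0.958). RefSeq annotates the last as a phosphoglycerate or bisphosphoglycerate mutase, an enzyme class that moves the phosphate of phosphoglycerate. The next probe set also had an r of 0.958, and 52 of the 569 exceeded 0.9, so the list of 8 has no clear edge. Leaving out single samples kept the r of these 8 between 0.951 and 0.981.

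The samples share their group, and such an r mostly reflects the 5 group means: for deviations from those means, r ranged from −0.10 (AT4G09620) to 0.59 (AT3G18560). A rule of order asked for both nitrate groups above ammonium at 1.5 h, that above ammonium at 8 h, and that above roots before supply, all without overlap. It did not regard the order of the nitrate groups to each other. On the whole array, 37 probe sets (0.163%), with glycerate kinase itself among them, met this rule. All 8 were among the 37, which selection by r over the same samples favours, so this is no separate support. The size of the change differed. AT5G10210 stood at 5.66, 5.38 and 6.09 before supply, at 10.08, 10.22 and 9.84 at 1.5 h after nitrate and at 10.75, 10.76 and 10.67 at 8 h. With ammonium it stood at 8.33, 7.72 and 8.21 at 1.5 h and at 6.79, 7.50 and 7.28 at 8 h. Its nitrate samples at 8 h all lay above those at 1.5 h, where glycerate kinase overlapped. PGM had mean levels of 7.91 before supply, 11.01 and 10.44 with nitrate and 9.22 and 8.79 with ammonium, at 1.5 h and 8 h, with changes of 3.1, 2.53, 1.31 and 0.88 in that order. At the other end, AT1G61740 changed by 1.27, 1.31, 0.58 and 0.34.

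By the distance between the 4 changes from before supply, over 13435 probe sets with 1 gene, the closest were AT5G10210 (1.19 log2), AT1G49500 (1.37), AT3G16560 (1.43), AT2G30670 (1.48) and AT4G18340 (1.60). AT5G10210 was the 1 gene in both selections. AT3G16560 and AT2G30670 did not meet the rule of order without overlap. With AT2G30670, the change with ammonium was larger at 8 h (2.16) than at 1.5 h (1.4), and with AT3G16560 it declined only from 2.74 to 2.43.

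**Figure D4:**
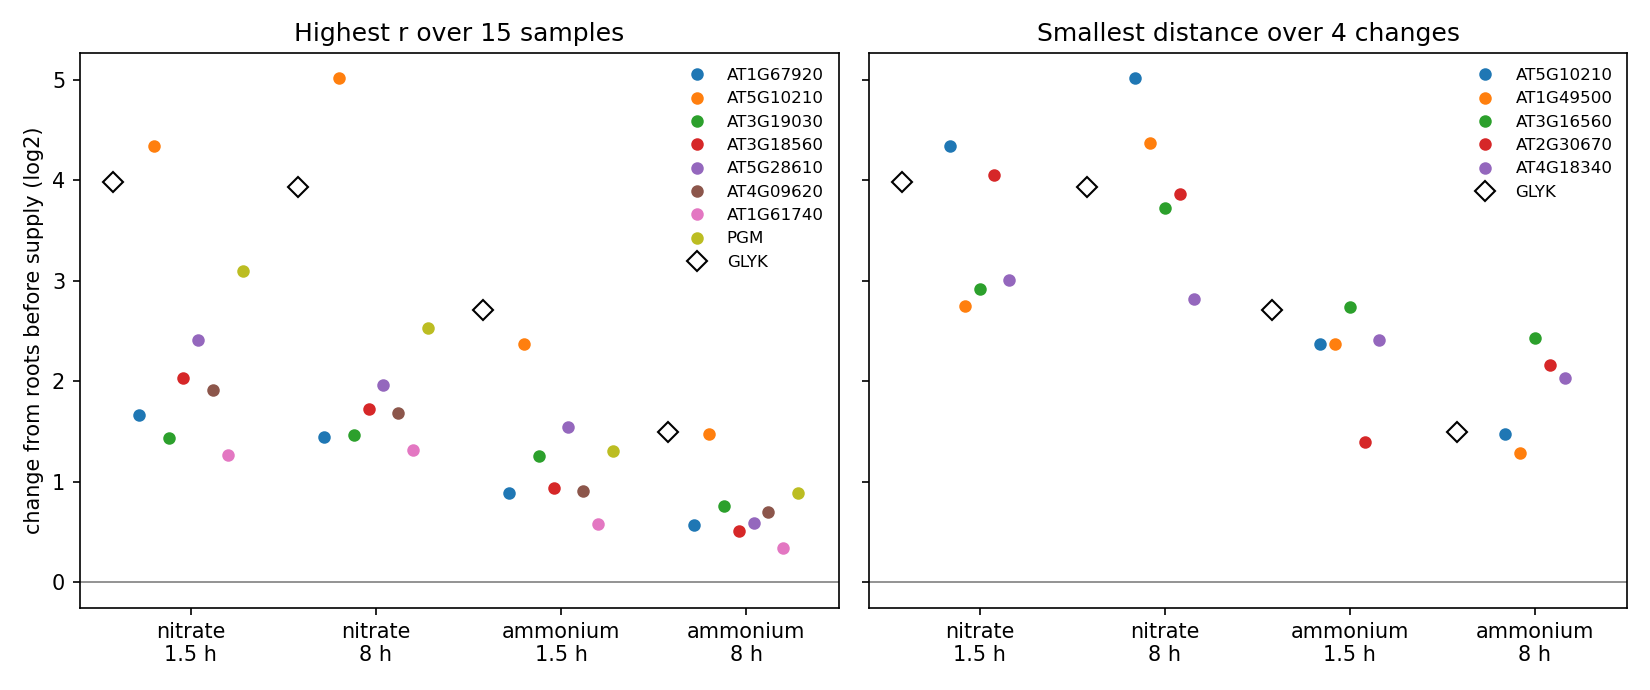
Changes from roots before supply (vertical axis, log2) in the 4 supplied groups for glycerate kinase (open diamond) and, on the left, the 8 genes with the highest r and, on the right, the 5 with the smallest distance, each a coloured point. The genes on the left mostly have the same order of groups at a smaller size, for example AT1G61740 from 0.34 to 1.31, and those on the right come closer in size.

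Position was not used to choose the gene. Of the 5 protein-coding genes annotated on each side of it in the RefSeq table, AT1G80400, the second on one side, was the 1 measured of 10. Its group means lay between 7.95 and 8.24, and its change from before supply was −0.19 at 1.5 h after nitrate (limma adjusted p = 0.061), −0.18 after ammonium (0.082), then 0.10 and −0.00 at 8 h (0.31 and 0.99). It was called between nitrate at 8 h and at 1.5 h, by 0.29 (limma adjusted p = 0.0056), a comparison in which glycerate kinase had a difference of −0.04.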

How the data were processed

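The deposited table holds log2 values made by the authors with RMA, as the submitters' processing notes name it (with limma); the log2 scale was read from the range of the values, 2.45 to 13.96. Versions and chip description files are not given in the sources used here. No value was renormalised. limma 3.58.1 in R 4.3.3 fitted 5 group means to all 22746 probe sets over 15 samples, with 10 residual degrees of freedom, and 9 comparisons were tested two-sided with Benjamini-Hochberg adjustment over all probe sets; a call is an adjusted p under 0.05. The fit was checked on simulated data. Figures used matplotlib 3.10.9.

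The platform annotation gave 1 gene for 13513 probe sets, several for 503 and none listed for 8730, and only the first were named. For a gene with several probe sets, the one with the highest mean was used. Names follow RefSeq (TAIR10.1) or, where it has no symbol, published names written into the lists. No coordinates are given because the files name no build.

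Glycerate kinase, the lists and the comparisons were chosen with earlier results of these data known. Named genes were all measured photorespiratory genes, up to 3 called members per other list and comparison with the largest change, the 8 highest r among probe sets spanning at least 1 log2, the 5 smallest distances, and measured neighbours. Listed genes count as measured only under their own name.

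Replicate numbers in the labels might pair samples. Deviations of same-numbered samples correlated at −0.162 to 0.369, above 0.1 in 14 of 30 pairs. All 3 pairs passed 0.1 only between roots before supply and ammonium at 1.5 h (0.300, 0.101 and 0.185), by the data and not by a label; with replicate as a block in the fit of all groups, 3 photorespiratory genes were called there, as without it. No labels give a batch, slide or scan time. Alternatives were a second quantile normalisation, median centring, a filter at a mean of 5, a variance trend, array weights, a replicate block, only the groups compared, leaving out each sample, another probe set per gene and Spearman's rho.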

Additional observations from a re-analysis of the deposited data

Results flagged for a closer look

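Among the listed genes and the neighbour, limma called a change of the ion difference with time for the repressors HHO2 and HHO3. The same test of the change itself called 4.5% of all probe sets. For HHO3 the ion difference was larger by 0.86 ± 0.16 at 8 h (limma adjusted p = 0.0068). Nitrate minus ammonium was −0.05 at 1.5 h and 0.81 at 8 h. For HHO2 it was larger by 0.58 ± 0.15 (adjusted p = 0.034), from −0.23 to 0.35, and this call was lost without single samples in 9 of 15 cases (adjusted p from 0.058 to 0.083). Glycerate kinase, for comparison, had differences of 1.27 and 2.45.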

How the results depend on the processing

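Over all 9 comparisons, 207 of 207 alternatives moved the change of glycerate kinase by less than the residual SD of 0.153, and none reversed a difference that was larger than it: 3.84 to 4.07 for nitrate at 1.5 h against before supply, 2.59 to 2.78 for ammonium at 1.5 h, 3.80 to 4.0 and 1.39 to 1.56 at 8 h. Leaving out single samples took nitrate at 8 h minus 1.5 h from −0.14 to 0.05. The filter, the variance trend, the replicate block and the fit of only the groups compared cannot change a difference of group means here. Neither can leaving out a sample of a group outside the comparison. The count of 207 is therefore partly fixed in advance and is no separate support for the pattern of this gene. For list members and the neighbour, only results called or near the threshold in the main fit were followed. Calls gained from further above it are thus not counted. Of these 2020 alternatives, 1862 kept their side of the threshold, 108 lost a call, 50 gained one and 0 changed direction. The count of photorespiratory genes called at 1.5 h after ammonium, 3 in all groups, was 1 with only the groups compared and 1 to 4 when single samples were left out (1 without ammonium replicate 1). With the replicate block and only the groups compared, a setting chosen after seeing the data, it was 1 at 1.5 h with each ion, and in each case the call left was that of BASS6. With the replicate block in the fit of all groups the counts were 3, 3, 3 and 3. For nitrate against ammonium at 1.5 h, the range over left-out samples was 1 to 2 (2 without ammonium replicate 3). Of the 8 patterns most like glycerate kinase, 3 were among the 8 by Spearman's rho and 5 to 8 when single samples were left out (5 without ammonium replicate 1 at 8 h). Array weights raised the number of probe sets called, to 6061 and 6151 at 1.5 h and 7177 and 6631 at 8 h (nitrate and ammonium against before supply). The samples before supply had weights of 0.25, 0.63 and 7.64, and those of the other groups 0.57 to 1.57. In that setting the mean before supply thus rested mostly on replicate 3. The cause of each change was not tested. Low probe sets such as HPR1 and PLGG1 lie near the lower quartile, and the values have no detection call, so their signal over background is unknown.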
